A study of Mus musculus with 6 samples.

Results

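The facilitative glucose transporters are the proteins of the Slc2a family, also called GLUTs, which let sugars cross a membrane down their concentration gradient. The genes described here are Slc2a1, Slc2a3, Slc2a4, Slc2a8, Slc2a10 and Slc2a12, taken by symbol as the members of the family in heart. They make up 6 of the 49315 genes of the deposited count table. The RNA came from whole hearts of C57BL/6 mice. There were 3 wild-type hearts and 3 hearts with the ARRDC4 knock-out, a mutation made by CRISPR-Cas9, and each heart gave 1 library. The sources used here do not give age, sex, feeding state or litter. The p-values set the difference between genotypes against the spread between these hearts. A difference between the groups in age, sex, feeding state or litter could not be told apart from genotype. Beyond the gene edit no treatment is named for either group, and the part of Arrdc4 that was deleted is not given.

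In the heart, glucose enters muscle cells mainly through the products of Slc2a1 and Slc2a4. The Slc2a1 protein stays largely at the cell surface and serves basal uptake, while the Slc2a4 protein waits in intracellular vesicles and moves to the surface when insulin or contraction calls for it. Alpha-arrestins are adaptors that take membrane proteins into the cell, and Txnip, the close relative of Arrdc4, is known to lower glucose uptake by acting on glucose transporters. Taking a transporter into the cell is a step on protein at the membrane. The counts here measure transcripts, not protein or its position in the cell.

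The libraries held 29974501 to 41036626 counts, and 14508 genes passed a filter on low counts, all 6 transporters among them. Arrdc4 itself stood at 11.04, 8.17 and 8.39 CPM (counts scaled to a common library size) in wild-type replicates 1 to 3 and at 0.117, 0.0345 and 0.0524 in knockout replicates 1 to 3. The groups did not overlap, as the labels call for (log2 fold change -6.93, SE 0.36, adjusted p = 0.00226, edgeR quasi-likelihood test). The libraries of wild-type replicate 3 and knockout replicate 2 stood apart from the other 4 on the first principal component, which held 58.9% of the variance. Their scores were -42.4 and -43.8, against -1.88 to 38.3 in the others. Results that rest on them are therefore also given without this pair. Each heart is a mixture of cell types, and fewer cells of a type and less RNA per cell cannot be told apart in such samples. The heart muscle markers checked, among them Myh6, Tnnt2 and Mb, were present in all 6 libraries, with a summed level of 70810 to 82980 CPM. Single markers varied more than this sum. Myh6 ran from 9167 CPM in knockout replicate 2 to 29523 in knockout replicate 3, and Mb from 10395 in knockout replicate 1 to 17836 in knockout replicate 2.

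Stretches before the start sites of Slc2a1 and Slc2a12 are shown because these were the members with the most negative fold changes. They run from 250 to 35 bases before the start site that RefSeq gives on GRCm38.p6, and 4 of the 6 members had an entry in that table. The Slc2a1 stretch lies at chr4:119108495-119108710 and the Slc2a12 stretch at chr10:22644761-22644976, both on the plus strand, 5′ to 3′. Capitals mark a GC box, the letters GGGCGG on either strand, which factors of the Sp family bind.
Slc2a1: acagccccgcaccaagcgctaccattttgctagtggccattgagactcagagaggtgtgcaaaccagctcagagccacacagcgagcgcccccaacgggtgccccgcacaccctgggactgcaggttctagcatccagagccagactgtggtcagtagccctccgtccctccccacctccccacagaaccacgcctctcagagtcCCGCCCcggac
Slc2a12: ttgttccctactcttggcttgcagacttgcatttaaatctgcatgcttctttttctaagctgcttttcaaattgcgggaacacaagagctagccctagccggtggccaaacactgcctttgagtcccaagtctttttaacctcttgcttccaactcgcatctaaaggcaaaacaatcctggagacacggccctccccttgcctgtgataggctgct
The Slc2a1 stretch was rich in G and C (63.9%) and held 1 GC box, whereas the Slc2a12 stretch had 48.1% G and C and no match. The stretches of Slc2a8 and Slc2a10 had 50.5% and 54.2% G and C and no GC box either. Among all 32851 windows of the same length the median was 51.9% G and C, and 27.9% held a GC box. The E-box letters CACGTG, which read the same on both strands and do not overlap the GC box letters, were in 4.9% of the windows, in that of Arrdc4, and in none of the 4 transporter windows. A match or its absence in such a window is a description of letters only.

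Slc2a4 was by far the most abundant transporter transcript in every heart. To compare genes, the CPM of each was divided by the length of its annotated exons in kb. On this length-scaled level Slc2a4 (ENSMUSG00000018566, GRCm38 chromosome 11, 69942539 to 69948188, minus strand) stood at 127, 141 and 129 CPM per kb in wild-type replicates 1 to 3 and at 122, 131 and 120 in knockout replicates 1 to 3. It lay above 98.5% of all tested genes in CPM. Slc2a1 followed at 4.39 to 5.95 CPM per kb and Slc2a8 at 4.13 to 5.91. Slc2a12 ran from 1.59 to 2.44, Slc2a10 from 0.186 to 0.477 and Slc2a3 from 0.144 to 0.196 CPM per kb. The level of Slc2a4 was 21.3 to 29.7 times that of Slc2a1 within a heart. Slc2a1 and Slc2a8 were not separated from each other, since Slc2a1 was the higher of the pair in 4 of 6 hearts, with ratios of 0.857 to 1.26. All other neighbours in this order kept it in 6 of 6 hearts, although Slc2a10 exceeded Slc2a3 by as little as 1.18 times. With the longest transcript as the length that smallest ratio was 1.03, and the order again held in 6 of 6 hearts.

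**Figure D1:**
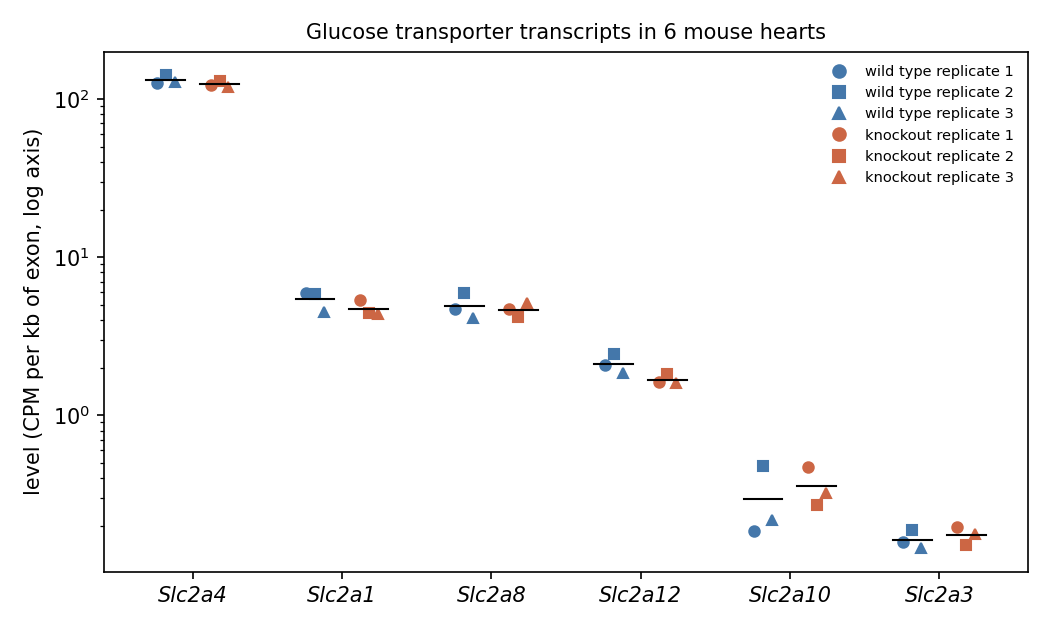
Level of the 6 transporter transcripts in CPM per kb of exon (log axis), 1 point per heart, with wild type on the left and knockout on the right of each gene and a bar at the mean of 3 hearts. Slc2a4 lies at 120 to 141 and Slc2a3, the lowest, at 0.144 to 0.196.

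No transporter changed between genotypes by the test. Of the 6 members, 0 passed an adjusted p of 0.05 in edgeR, and 0 had an unadjusted p under 0.05. DESeq2 and limma-voom also called 0 members. Among all tested genes 0.00689% were called, which is Arrdc4 alone, and 1.23% had an unadjusted p under 0.05. Over the 6 members the median log2 fold change was -0.08 and 4 of 6 were below 0, beside a median of 0.01 and 47.7% below 0 over all tested genes. The adjusted p of each member was 1 in edgeR. For 5 of the 6 members, all but Slc2a10, the 95% interval left out both a 2-fold rise and a 2-fold fall, where 76.5% of all tested genes had such an interval. It left out 1.5-fold differences for Slc2a4 and Slc2a8, 2 of the 6, where the share over all genes was 39.7%. Without the library pair that stood apart the log2 fold changes were -0.16 for Slc2a4 (SE 0.12), -0.13 for Slc2a8 (SE 0.16), 0.23 for Slc2a10 (SE 0.46) and 0.10 for Slc2a3 (SE 0.28), and again none passed the test.

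**Figure D2:**
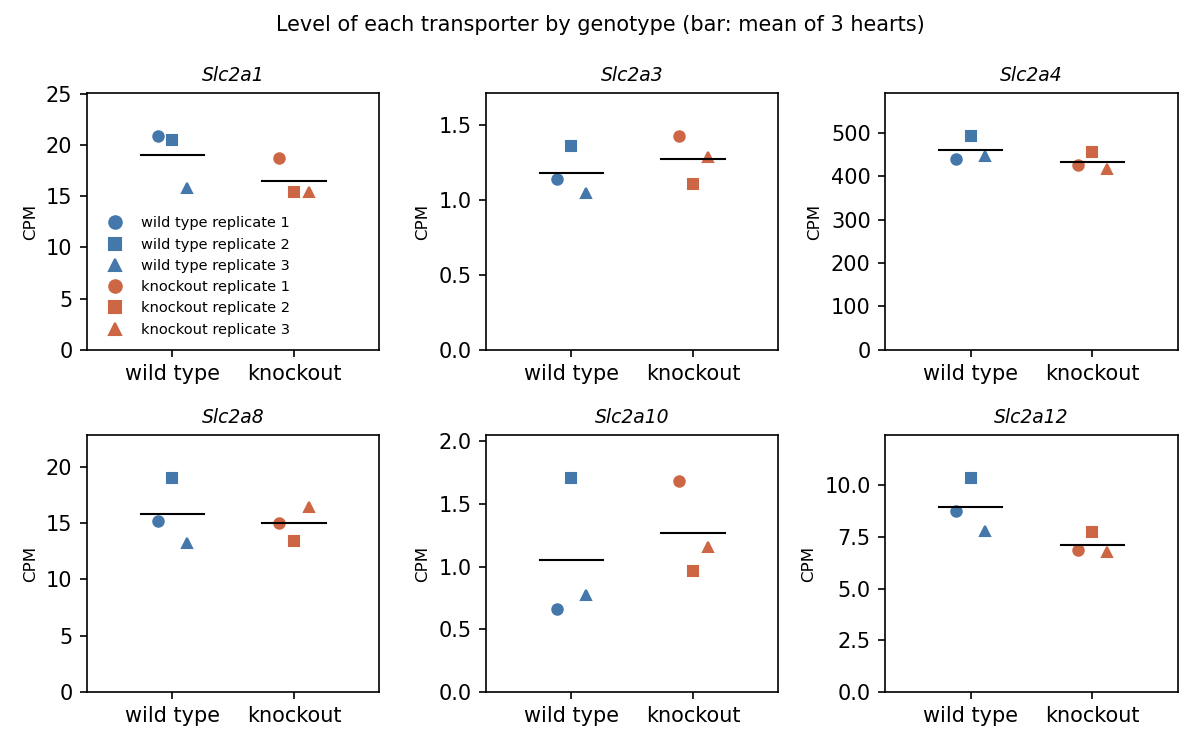
CPM of each transporter in every heart, 1 panel per gene with an axis from 0, wild type in blue, knockout in orange, symbols for the replicates and a bar at the mean of 3 hearts. The groups overlap in every panel but that of Slc2a12, where the lowest wild-type heart (7.79) is just above the highest knockout heart (7.75).

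Slc2a4 encodes the insulin-responsive transporter of muscle and fat. Its level was 440, 492 and 447 CPM in wild-type replicates 1 to 3 and 425, 455 and 416 CPM in knockout replicates 1 to 3. The groups overlapped, and the highest and lowest of the 6 hearts differed by 1.18 times, the narrowest range of the 6 genes. Wild-type hearts averaged 460 ± 28.3 CPM and knockout hearts 432 ± 20.3 (SD, n = 3 each). The log2 fold change was -0.09 (SE 0.14, 95% interval -0.41 to 0.23), that is 0.939 times the wild-type level with an interval of 0.75 to 1.18. The spread of Slc2a4 within a genotype was 0.078 on the log2 CPM scale, beside a median of 0.293 over all tested genes. With 13196 to 18481 reads per library, counting error is a small part of this spread. Markers of fat cells, which also use this transporter, summed to 0.253 to 0.895 CPM in wild-type and 0.172 to 0.816 CPM in knockout hearts over 8 genes, Adipoq and Plin1 among them, and none of the 8 passed the count filter.

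Slc2a1 encodes the basal transporter of muscle cells, endothelium and many other cells. The gene (ENSMUSG00000028645) lies on GRCm38 chromosome 4, 119108711 to 119137983, plus strand. Wild-type replicates 1 to 3 held 20.9, 20.5 and 15.8 CPM and knockout replicates 1 to 3 held 18.7, 15.4 and 15.4 CPM. Wild-type replicates 1 and 2 were the highest of the 6 hearts, while wild-type replicate 3 lay near the lowest knockout hearts, so the groups overlapped. Knockout over wild type, the log2 fold change was -0.20 (SE 0.17, 95% interval -0.60 to 0.19, unadjusted p = 0.258 in edgeR). Without the library pair that stood apart it was -0.29 (SE 0.14), with an adjusted p of 0.76 in edgeR. The summed level of 10 endothelial markers was 865 to 1071 CPM in wild-type and 835 to 1155 CPM in knockout hearts. Whether endothelial content bears on Slc2a1 was not tested. An antisense gene, Gm12868, shares 105 bases of exon with Slc2a1 and held 0 to 3 reads per library.

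Slc2a12 encodes a transporter that is found in heart, skeletal muscle and fat, and it had the smallest p of the 6 members. Its gene (ENSMUSG00000037490) lies on GRCm38 chromosome 10, 22645011 to 22704285, plus strand. It stood at 8.77, 10.3 and 7.79 CPM in wild-type replicates 1 to 3 and at 6.86, 7.75 and 6.76 CPM in knockout replicates 1 to 3. The knockout values were below the wild-type values in every pairing of hearts, by a margin of less than 1% between wild-type replicate 3 and knockout replicate 2. Over all tested genes 1.9% had their knockout values below their wild-type values without overlap. Wild-type hearts averaged 8.96 ± 1.28 CPM and knockout hearts 7.12 ± 0.549 (SD, n = 3 each). The log2 fold change was -0.33 (SE 0.17, 95% interval -0.72 to 0.06, unadjusted p = 0.0839 in edgeR). The hearts nearest to each other were the library pair that stood apart. Without them the log2 fold change was -0.50 (SE 0.16, unadjusted p = 0.0196, adjusted p = 0.704 in edgeR). In that fit 981 of 14610 tested genes had an unadjusted p under 0.05, against 179 of 14508 with all 6 hearts. Without wild-type replicate 2, the highest heart, the log2 fold change of Slc2a12 was -0.22 (SE 0.19). A change of Slc2a12 was called in none of the alternatives run. The last exon of Slc2a12 shares 407 bases, 9.61% of its exon length, with Tbpl1 on the opposite strand, and the sources used here do not give the strand setting of the counting. Tbpl1 had a log2 fold change of 0.00 (SE 0.22, 12.1 CPM in both groups).

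Slc2a8 encodes a transporter that sits mainly on intracellular membranes. The gene (ENSMUSG00000026791) lies on GRCm38 chromosome 2, 32972990 to 32982083, minus strand. The 3 wild-type hearts held 15.2, 19.0 and 13.3 CPM and the 3 knockout hearts 15.02, 13.4 and 16.4 CPM. The groups overlapped throughout, with wild-type replicate 2 the highest and wild-type replicate 3 the lowest of the 6. Its log2 fold change was -0.08 (SE 0.18, 95% interval -0.49 to 0.34). Without wild-type replicate 2 it turned to 0.071 (SE 0.18), so these hearts give no direction for Slc2a8.

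Slc2a10 and Slc2a3 were near the floor of detection. Slc2a10 encodes an intracellular transporter, loss of which in humans causes arterial tortuosity syndrome, a disease of arterial wall and connective tissue. It lies on GRCm38 chromosome 2, 165503787 to 165519917, plus strand (ENSMUSG00000027661). It gave 21, 64 and 26 reads in wild-type replicates 1 to 3 and 72, 28 and 44 in knockout replicates 1 to 3. The 95% counting interval reached up to 32.1 reads at the lowest of these counts and down to 56.3 at the highest, so the intervals of those hearts did not meet. These reads are not scaled for library size, and the lowest and highest counts were picked, so this is a description only. In CPM it was 0.665, 1.70 and 0.776 in the wild-type hearts and 1.68, 0.965 and 1.152 in the knockout hearts. Wild-type replicate 2 and knockout replicate 1 were the high hearts, 1 in each genotype. Its log2 fold change was 0.27 (SE 0.42, 95% interval -0.72 to 1.26), and it ran from 0.01 without knockout replicate 1 to 0.81 (SE 0.37) without wild-type replicate 2, where the adjusted p was 0.975 in edgeR. The summed level of 10 fibroblast markers was 1271, 1641 and 1174 CPM in wild-type replicates 1 to 3 and 1854, 917 and 1751 CPM in knockout replicates 1 to 3. Knockout replicate 1 and wild-type replicate 2 were thus the highest heart of their genotypes on that sum, with knockout replicate 3 not far below knockout replicate 1. Smooth muscle and pericyte markers summed to 1063, 1084 and 1104 CPM in wild-type replicates 1 to 3. In knockout replicates 1 to 3 they summed to 1215, 986 and 1141 CPM. On this second sum the highest wild-type heart was replicate 3, where Slc2a10 was low. Fold changes were above 0 for 9 of 10 fibroblast markers and 8 of 10 smooth muscle and pericyte markers, where 47.7% of all tested genes were below 0. The part of these cell types in the Slc2a10 values was not tested.

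Slc2a3 encodes the high-affinity transporter of neurons and blood cells. It lies on GRCm38 chromosome 6, 122727809 to 122801640, minus strand (ENSMUSG00000003153). It gave 36, 51 and 35 reads in wild-type replicates 1 to 3 and 61, 32 and 49 reads in knockout replicates 1 to 3, or 1.04 to 1.36 CPM and 1.10 to 1.42 CPM. The groups overlapped. The log2 fold change was 0.11 (SE 0.24, 95% interval -0.46 to 0.67). Markers of cells that carry this transporter were also low. The 10 neutrophil markers summed to 2.88 to 3.97 CPM in wild type and 1.54 to 5.89 CPM in knockout, and the 8 platelet markers to 12.2 to 16.1 and 11.6 to 18.3 CPM. The 10 nerve and Schwann cell markers summed to 12.7 to 17.6 CPM in wild type and 17.2 to 18.8 CPM in knockout, with Th at 0 in every library. Macrophage markers were higher, at 281 to 328 CPM in wild type and 236 to 459 CPM in knockout. Their part in the Slc2a3 values was not tested.

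Slc2a4 dominated the pool of transporter transcripts in every heart. It made up 90.6%, 90.5% and 92.2% of the summed length-scaled level of the 6 members in wild-type replicates 1 to 3 and 90.9%, 92.3% and 91.1% in knockout replicates 1 to 3. The highest shares were those of wild-type replicate 3 and knockout replicate 2, 1 of each genotype. Slc2a1 made up 3.74% ± 0.515 of it in wild-type and 3.47% ± 0.438 in knockout hearts, and Slc2a8 3.38% ± 0.408 and 3.45% ± 0.479 (SD, n = 3 hearts each). Slc2a12 had a share of 1.48%, 1.56% and 1.32% in the wild-type and 1.202%, 1.29% and 1.22% in the knockout hearts. This was the only one of the 6 shares whose groups did not overlap. Its mean difference of -0.22 percentage points had p = 0.1 in an exact two-sided permutation test, the smallest p that 3 hearts against 3 can give, and 0.6 when adjusted over the 6 shares. Without the library pair that stood apart the difference was -0.31 points (exact permutation p = 0.333, the smallest that 2 hearts against 2 can give). The other 5 shares had p = 0.3 to 0.8 in the same exact test. The pool as a whole summed to 140, 156 and 139 CPM per kb in wild-type and 135, 142 and 131 CPM per kb in knockout hearts. On the log2 scale the pool differed by -0.09 between the group means (exact permutation p = 0.3). That difference was -0.04 without wild-type replicate 2 and -0.15 without the library pair that stood apart.

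The ratio of Slc2a4 to Slc2a1, which does not depend on how libraries are scaled, was 21.3, 24.3 and 28.5 in wild-type replicates 1 to 3. In knockout replicates 1 to 3 it was 22.9, 29.7 and 27.2. Wild-type replicate 3 and knockout replicate 2 had the highest values of their genotypes, and the groups overlapped. The mean log2 ratio was 4.62 ± 0.212 in wild-type hearts and 4.73 ± 0.189 in knockout hearts (SD, n = 3 each), a difference of 0.11 (exact permutation p = 0.6). Leaving out wild-type replicate 1 gave 0.0087 and leaving out wild-type replicate 3 gave 0.22. Leaving out knockout replicate 1 gave 0.21, knockout replicate 2 gave 0.028, and the library pair that stood apart gave 0.14.

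Hearts of the same genotype differed from each other for every member. Of the 6 members, 4 peaked in wild-type replicate 2, namely Slc2a4, Slc2a8, Slc2a10 and Slc2a12. Slc2a1 peaked in wild-type replicate 1 and Slc2a3 in knockout replicate 1. The within-genotype spread was 0.194 for Slc2a1, 0.181 for Slc2a3, 0.211 for Slc2a8, 0.163 for Slc2a12 and 0.562 for Slc2a10 on the log2 CPM scale. Slc2a10 alone exceeded the median of all tested genes, which was 0.293.

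The genes whose level followed each member most closely over the 6 hearts were taken by the highest Pearson correlation of log2 CPM among 10806 or 10807 genes whose log2 CPM averaged 1 or more. With 6 hearts and so many genes, close matches are common, and 26 to 1176 genes had r over 0.9 with a given member. The points share library depth, scaling and the pair that stood apart. The closest gene to Slc2a1 was Mlxipl (r = 0.985, rho = 0.943), which encodes ChREBP, a glucose-sensing transcription factor. Next to Slc2a1 came Rpusd2 and Mfn1. Genes close to Slc2a4 were Kif1bp (r = 0.977, rho = 0.943) and Kdm7a. Those closest to Slc2a12 were Lrrc1 (r = 0.98, rho = 0.886), Nabp1 and Ndufa10. Slc2a8 was followed by Epb41 (r = 0.997, rho = 0.886), Braf and Cdk18. Slc2a10 was followed by Spef1 (r = 0.999, rho = 0.943), Lmbrd2 and Invs, and Slc2a3 by Epha2 (r = 0.998, rho = 1), Ctdp1 and Golga4.

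Other sugar transporters were low or not detected, and none changed by the test. Of the 6 further Slc2a genes looked up, Slc2a6 and Slc2a9 passed the count filter. Slc2a9, a urate transporter, stood at 0.206 to 0.43 CPM per kb, above Slc2a3 in every heart. Its log2 fold change was -0.20 (SE 0.36), and that of Slc2a6 was 0.20 (SE 0.55). Slc2a2, the transporter of liver and beta cells, gave 3 to 12 reads per library, the fructose transporter Slc2a5 1 to 7, and the inositol transporter Slc2a13 5 to 21. Slc2a7 had no read in any library. Among 6 genes of the sodium-coupled sugar transporter family, some of which carry glucose against its gradient, only Slc5a1 passed the filter. Slc5a1 encodes SGLT1, and it gave 36, 27 and 20 reads in wild-type replicates 1 to 3 and 14, 13 and 15 in knockout replicates 1 to 3. All 3 knockout values lay below the wild-type values, at 0.327 to 0.448 against 0.597 to 1.14 CPM. Over all tested genes 1.9% had their knockout values below without overlap, and 1.23% had an unadjusted p under 0.05 in edgeR. The nearest hearts were wild-type replicate 3 and knockout replicate 2, the pair that stood apart, and a fit of Slc5a1 without them is not reported here. The log2 fold change of Slc5a1 was -1.07 (SE 0.36, 95% interval -1.91 to -0.24, unadjusted p = 0.0189, adjusted p = 1 in edgeR), so that it did not pass the test.

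**Figure D3:**
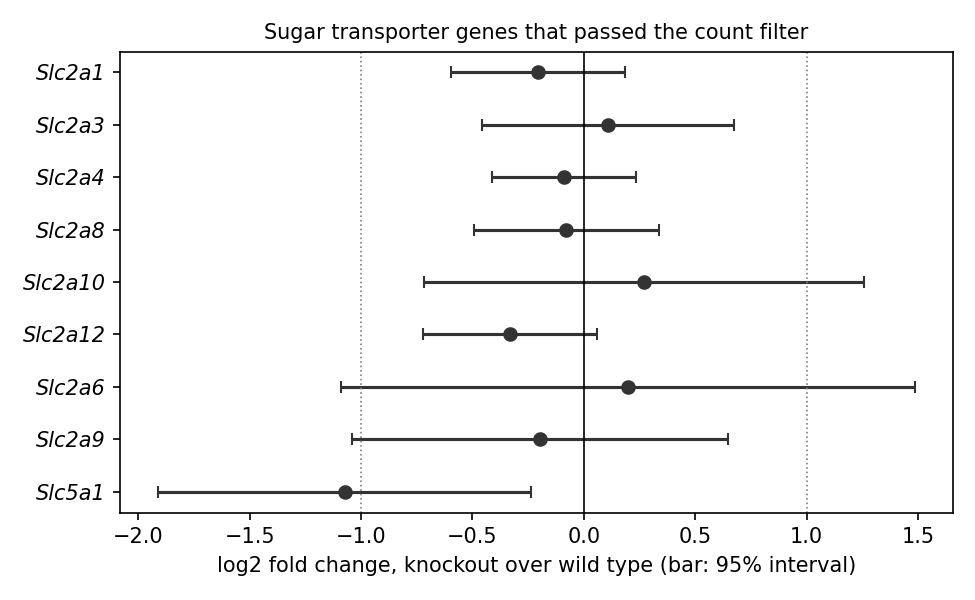
Log2 fold change of knockout over wild type for the 9 sugar transporter genes that passed the count filter, with 95% intervals; dotted lines mark a 2-fold difference. The intervals of the 6 described genes all include 0, and that of Slc5a1 runs from -1.91 to -0.24.

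Genes that act before and after the transporters gave no call other than Arrdc4. Over the other 91 tested genes of 8 lists, 0 were called in either direction by edgeR, 2 had an unadjusted p under 0.05 (2.2%, beside 1.23% of all tested genes), and 6 had groups that did not overlap (6.59%, beside 4.07%). Their median log2 fold change was 0.03. All 28 genes of Slc2a4 vesicle traffic passed the filter, with a median of 0.03, 18 above and 10 below 0, and a 2-fold difference was excluded for 26. Tbc1d4, the Akt substrate that holds Slc2a4 vesicles back, averaged 89.1 ± 16.5 CPM in wild-type hearts and 95.5 ± 20.6 in knockout hearts (SD, n = 3 each). The smallest p of that list belonged to Tbc1d1, its close relative (log2 fold change 0.34, SE 0.21), and to the small GTPase gene Rab13 (0.29, SE 0.19).

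Of 17 genes of insulin signalling 10 were above and 7 below 0, and none passed. Irs1 and Irs2, which encode the docking proteins of the insulin receptor, had the smallest p, with log2 fold changes of -0.36 (SE 0.19) and -0.88 (SE 0.50). Irs2 stood at 9.68, 25.03 and 5.94 CPM in wild-type replicates 1 to 3 and at 6.79, 6.10 and 9.19 CPM in knockout replicates 1 to 3. Wild-type replicate 2 was the high heart, and the other 5 lay between 5.94 and 9.68 CPM. Of the 8 genes of AMPK, the energy-sensing kinase, and its activator, 6 were below 0 with a median of -0.07, and those with the smallest p were the subunit genes Prkag3 (-0.34, SE 0.24) and Prkab2 (-0.21, SE 0.18).

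Transcription factors and cofactors that act on Slc2a1 or Slc2a4 split into 12 above and 6 below 0 of 18 tested. Mef2a, a muscle factor that binds the Slc2a4 promoter, averaged 185 ± 19.0 CPM in wild-type and 199 ± 13.9 in knockout hearts, and Hif1a, the hypoxia factor that acts on Slc2a1, at 79.1 ± 11.6 and 77.9 ± 8.64 (SD, n = 3 hearts each). The smallest p belonged to Srebf1, a lipogenic factor induced by insulin (-0.41, SE 0.20), and to the deacetylase gene Hdac5 (0.11, SE 0.14). Of 10 tested genes for hexokinases and entry into glycogen 5 were above and 5 below 0. Hk2, the main hexokinase of insulin-responsive muscle, averaged 261 ± 97.7 CPM in wild-type and 289 ± 88.3 in knockout hearts, and Hk1 at 173 ± 15.4 and 187 ± 38.0 (SD, n = 3 hearts each). Ugp2, for the enzyme that makes UDP-glucose, had a log2 fold change of -0.23 (SE 0.24).

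Among the alpha-arrestins and the factors that sense glucose, Arrdc4 was the only gene called. The median of the other 7 tested genes was 0.02. Txnip stood at 233, 194 and 272 CPM in wild-type replicates 1 to 3 and at 209, 185 and 527 CPM in knockout replicates 1 to 3, so that knockout replicate 3 was high and the others overlapped. In knockout replicate 3 Slc2a1, Slc2a4 and Slc2a12 had the lowest CPM of the 6 hearts, at 15.4, 416 and 6.76. For Slc2a1 knockout replicate 2 (15.4) and wild-type replicate 3 (15.8) lay within 0.5 CPM of that value. For Slc2a4 and Slc2a12 the next lowest heart was knockout replicate 1, at 425 and 6.86 CPM, where Txnip was not high. In knockout replicate 3 the other members, Slc2a3, Slc2a8 and Slc2a10, lay above their means over the 6 hearts, by 0.072, 0.108 and 0.077 in log2 CPM. Whether Txnip bears on these values was not tested. Mlxipl had a log2 fold change of -0.37 (SE 0.20) and its relative Mlxip, which encodes MondoA, one of 0.02 (SE 0.21).

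**Figure D4:**
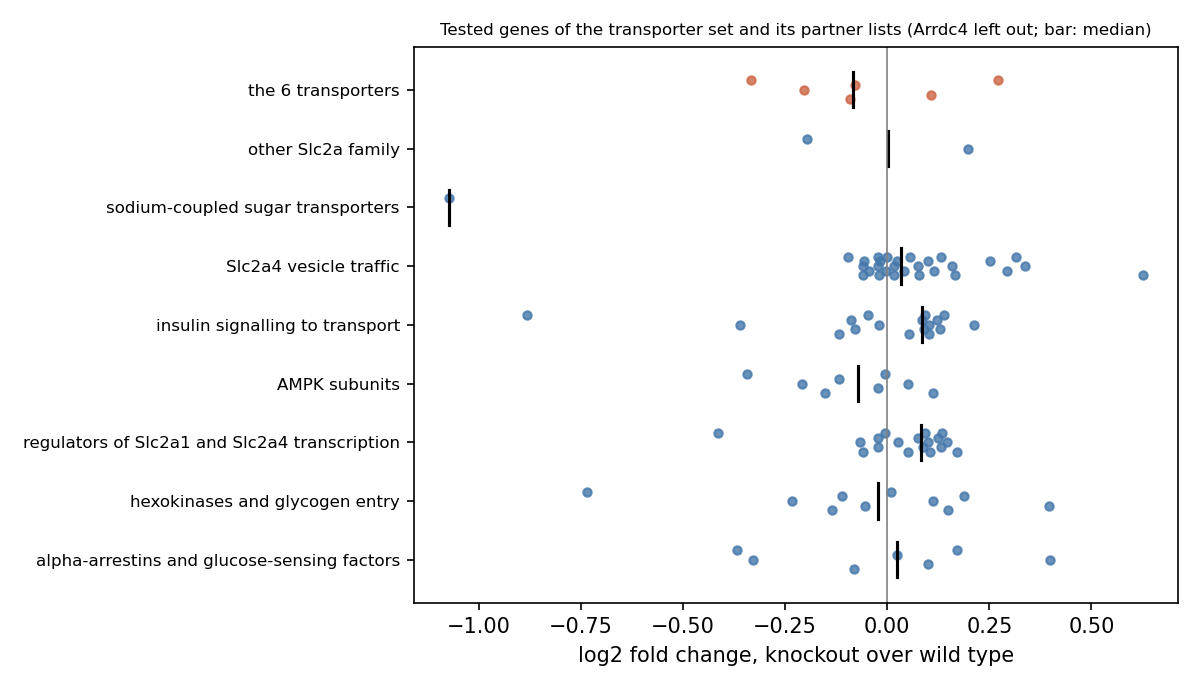
Log2 fold change of knockout over wild type for each tested gene of the transporter set and of 8 partner lists, with a bar at each median and Arrdc4 left out. The medians of the lists with 7 or more genes lie between -0.07 and 0.09, and the outermost points are Slc5a1 below 0 and Lrp1 above 0.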

How the data were processed

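The authors deposited raw counts of reads for each gene. Per the submitters' processing notes the tools were featureCounts, STAR, DESeq2 and Subread 1.5.2 and the build was GRCm38.p6, with no role named. The sources used here do not give the strand setting or the treatment of shared reads. From these counts, filterByExpr (minimum count 10, minimum total 15) left 14508 genes. TMM scaled the libraries, and the genotypes were compared with edgeR 4.0.16 (quasi-likelihood F test, Benjamini-Hochberg, threshold 0.05) in R 4.3.3. Standard errors and 95% intervals came from the F statistic. DESeq2 1.42.0 and limma 3.58.1 (voom) were alternatives. The fit was tested on simulated data. There it missed most genes given a 1.5-fold or 2-fold difference, recovered most given a larger one, and made some false calls. Exon lengths and coordinates came from GENCODE on GRCm38. Pool shares and ratios were tested by exact permutation over hearts. Symbols matched 48970 of 49315 identifiers. Groups and replicate numbers came from the sample titles, and no 2 libraries agreed within sampling noise (chi-square over degrees of freedom of 7.77 for the closest). Totals ran from 29974501 to 41036626 counts, and counting intervals are exact Poisson intervals that cover counting error only.

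The members, lists and alternatives were chosen with earlier results of these data known. Named genes are the 6 members, Arrdc4, Txnip and the other Slc2a genes; from each partner list those called, or else the 2 with the smallest p; and for each member the 3 genes with the highest correlation. Some genes that this rule takes are not reported here. Tbc1d4, Mef2a, Hif1a, Hk1, Hk2, Mlxip, Lrp1, Tbpl1 and Gm12868 were named outside that rule, after their values were seen. Marker lists of lymphocytes (1.81 to 5.47 CPM summed over the 6 hearts), erythroid cells (453 to 801 CPM) and epicardial cells (6.17 to 37.8 CPM) were also measured.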

Additional observations from a re-analysis of the deposited data

How the results depend on the processing

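None of the 6 transporters was called under any of the 16 alternatives (DESeq2 size factors, library size alone, no filter, 1 CPM in 3 libraries, limma-voom, DESeq2, edgeR with robust dispersions, 1 or 2 libraries left out, a replicate block and a length offset). The direction of each fold change stayed the same in all 16 for Slc2a1, Slc2a3, Slc2a4, Slc2a10 and Slc2a12, and in 15 for Slc2a8, which ran from -0.19 without wild-type replicate 3 to 0.071 without wild-type replicate 2. Slc2a12 ran from -0.50 to -0.22, with a smallest adjusted p of 0.613 (edgeR). When single libraries were left out, Slc2a1 ran from -0.32 to -0.13, Slc2a4 from -0.13 to -0.042, Slc2a3 from 0.016 to 0.22 and Slc2a10 from 0.0069 to 0.81. The count of genes called over the whole table was 0 to 1 when single libraries were left out. It was 0 with the replicate block, where Arrdc4 had a log2 fold change of -7.00 and an adjusted p of 0.0507 (edgeR), against -6.93 and 0.00226 with no block, and 2 without wild-type replicate 3 and knockout replicate 2, where Spp1 was the other gene called, named after its value was seen. Without knockout replicate 3 Arrdc4 had a log2 fold change of -6.75 and an adjusted p of 0.0519 (edgeR). The deviations of same-numbered hearts from their group means had r of 0.18, -0.65 and -0.40 over genes. Wild-type replicate 3 and knockout replicate 2, the pair that stood apart, had r of 0.68. Deviations within a group sum to 0 and largely follow that pair, so these values cannot decide whether the replicate numbers pair the samples. The mean paired difference of the Slc2a12 share under the block equals the unpaired -0.22 points by arithmetic, so it is no check of that value. Its p was 0.25 in an exact sign-flip test over hearts paired by number, the smallest that this test can give here. Shares kept their direction except Slc2a4, which ran from -0.11 (without knockout replicate 2) to 0.89 points, and Slc2a8, which ran from -0.16 (without knockout replicate 3) to 0.32 points and was -0.14 without wild-type replicate 3. Depth limits Slc2a3 and Slc2a10, with 21 to 72 reads per library.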
